A study of Homo sapiens with 12 samples.

Results

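The cyclin-dependent kinase (CDK) inhibitors are proteins that hold back the kinases driving cells through the division cycle, and their transcripts were followed here in MRC5 cells, a line of human embryonic lung fibroblasts. The 8 genes were chosen by symbol, namely CDKN1A, CDKN1B, CDKN1C, CDKN2A, CDKN2B, CDKN2C, CDKN2D and CDKN3, out of 57500 genes in the count table, and each symbol occurred in 1 row. RNA was sequenced in 12 libraries, 3 in each of 4 groups. Prol are proliferating cells. Sen(IR) are cells made senescent by 20 Gy of X-rays and collected 10 to 12 days later. Sen(IR)+UK5099 and Sen(IR)+CTPI2 received the same irradiation and were then kept in an inhibitor from the next day on. UK5099 blocks the mitochondrial pyruvate carrier and was used at 100 μM. CTPI2 blocks the mitochondrial citrate carrier SLC25A1 and was used at 15 or 30 μM, and the dose of the sequenced samples is not given in the sources used here. All groups come from this single cell line. Total counts per library ran from 20597736 to 28245693.

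Senescence is a lasting exit from the cell cycle, and CDK inhibitors are its best known brakes. The CIP/KIP members p21 (CDKN1A), p27 (CDKN1B) and p57 (CDKN1C) bind cyclin-CDK complexes, CDK2 among them, and p21 is a classical target of the DNA damage response. The INK4 members p16 (CDKN2A), p15 (CDKN2B), p18 (CDKN2C) and p19 (CDKN2D) bind CDK4 and CDK6 and keep them from D-type cyclins, which leaves the retinoblastoma protein in its growth-suppressive form. CDKN2A encodes a further protein, p14ARF, from another first exon, and counts per gene do not separate it from p16. CDKN3 is of another kind, a phosphatase that removes an activating phosphate from CDKs and whose transcript is known to accompany proliferation. The levels below are CPM, the counts of a gene relative to the size of its library, after TMM scaling, which corrects for library size and composition. Differences are log2 fold changes from edgeR's quasi-likelihood test over 16251 genes. A gene was called where its Benjamini-Hochberg adjusted p was below 0.05 and its log2 fold change exceeded 0.5 in either direction. All 8 members passed the filter on low counts.

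The cells expressed fibroblast markers as labelled. All 11 fibroblast markers checked were above 1 CPM in every library, and their summed level spanned 26064 to 29820 CPM in Prol and 27074 to 28191 CPM in Sen(IR). UK5099 libraries summed to 15975 to 17163 CPM and CTPI2 libraries to 24054 to 26288 CPM. For smooth muscle markers the sum was 550 to 685 CPM in Prol and 91.2 to 93.8 CPM in Sen(IR), while UK5099 libraries had 43.0 to 45.1 CPM and CTPI2 libraries 81.9 to 92.5 CPM. Epithelial markers summed to 60.3 to 72.7 CPM in Prol and 16.4 to 27.5 in the irradiated groups, endothelial markers to at most 6.23, and leukocyte markers to 0.386 to 0.554 in Prol and 2.71 to 5.04 in the irradiated groups. SFTPC was at 0 in every library of 3 groups, CDH5 in Prol and with UK5099, and CD3E in Prol and with UK5099. The part of these shifts in the results below was not tested. In bulk RNA, fewer cells carrying a transcript and less of it per cell cannot be told apart.

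In senescent cells the CDK inhibitor transcripts moved in opposite directions. In Sen(IR) against Prol, 7 of the 8 members were called, where 47.2% of all genes tested were called. CDKN1A and CDKN2B rose (24.8% of all genes were called higher), while CDKN1B, CDKN2A, CDKN2C, CDKN2D and CDKN3 fell (22.4% of all genes were called lower). The largest differences were those of CDKN2C and CDKN3, which both dropped about 16-fold. The median log2 fold change of the 8 members was -0.82, against 0.014 over all genes tested. For 7 members no library of one group came within the range of the other, as for 70.9% of all genes.

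The stretches of 250 bases before the annotated RefSeq starts (GRCh38.p14) are shown for the 4 members with an absolute log2 fold change over 1 in this comparison, the pair that rose and the pair that fell, since these carry the main result. Capitals mark matches, on either strand, to 5 short motifs: the CHR letters TTTGAA, the letters CCAAT, the GC box GGGCGG, the TATA letters TATAAA, and the E2F letters TTTGGCGC, TTTCGCGC, TTTCCCGC or TTTGCCGC. The stretches lie at chr6:36678464-36678713 (plus strand) for CDKN1A, at chr9:22009306-22009555 (minus strand) for CDKN2B, at chr14:54396757-54397006 (plus strand) for CDKN3, and, for the 3 annotated starts of CDKN2C on the plus strand, at chr1:50960495-50960744, chr1:50968456-50968705 and chr1:50969995-50970244.
CDKN1A: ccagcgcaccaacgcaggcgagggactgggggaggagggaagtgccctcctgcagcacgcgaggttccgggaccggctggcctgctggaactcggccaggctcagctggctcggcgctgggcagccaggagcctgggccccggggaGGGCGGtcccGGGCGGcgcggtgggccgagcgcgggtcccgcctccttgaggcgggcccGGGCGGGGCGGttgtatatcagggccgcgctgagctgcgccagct
CDKN2B: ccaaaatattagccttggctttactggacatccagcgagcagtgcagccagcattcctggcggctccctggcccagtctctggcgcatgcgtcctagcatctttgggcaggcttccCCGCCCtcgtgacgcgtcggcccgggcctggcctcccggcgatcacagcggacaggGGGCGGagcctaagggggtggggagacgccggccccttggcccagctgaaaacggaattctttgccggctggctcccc
CDKN2C, first start: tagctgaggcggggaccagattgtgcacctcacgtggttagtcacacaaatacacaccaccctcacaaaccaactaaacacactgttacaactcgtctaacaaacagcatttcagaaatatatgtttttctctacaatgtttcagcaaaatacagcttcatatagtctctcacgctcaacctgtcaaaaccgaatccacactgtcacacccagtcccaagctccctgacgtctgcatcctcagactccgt
CDKN2C, second start: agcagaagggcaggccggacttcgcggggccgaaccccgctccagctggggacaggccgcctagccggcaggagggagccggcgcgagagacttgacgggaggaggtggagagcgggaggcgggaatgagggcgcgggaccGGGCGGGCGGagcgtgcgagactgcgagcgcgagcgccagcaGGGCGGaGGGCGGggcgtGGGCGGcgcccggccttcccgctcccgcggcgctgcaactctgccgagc
CDKN2C, last start: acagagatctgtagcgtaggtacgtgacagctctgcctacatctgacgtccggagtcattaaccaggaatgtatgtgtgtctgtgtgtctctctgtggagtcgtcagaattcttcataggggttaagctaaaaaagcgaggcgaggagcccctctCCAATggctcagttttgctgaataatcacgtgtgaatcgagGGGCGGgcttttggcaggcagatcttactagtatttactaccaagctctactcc
CDKN3: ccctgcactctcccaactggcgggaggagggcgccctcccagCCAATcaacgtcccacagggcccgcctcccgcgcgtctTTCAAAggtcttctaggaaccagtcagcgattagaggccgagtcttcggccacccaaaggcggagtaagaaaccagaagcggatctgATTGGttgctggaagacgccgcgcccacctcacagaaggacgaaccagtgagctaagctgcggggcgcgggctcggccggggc

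Of the 8 members, 7 had an entry in the RefSeq table, with 10 starts in all, and the entry missing is that of CDKN1C. CDKN3 was the only member whose stretch held the CHR letters, beginning 170 bases before its start, together with CCAAT letters in 2 places, beginning 208 and 83 bases before it. CHR and CCAAT letters are known from promoters of genes expressed late in the cell cycle. CCAAT letters also stood before the start of CDKN1B, the last start of CDKN2C and the start of CDKN2D, so that 4 of the 10 stretches held them. CDKN1A had 4 GC boxes, CDKN2B had 2 and the second start of CDKN2C had 5, some of them overlapping, and 7 of the 10 stretches held at least 1. The TATA and E2F letters were found in 0 of the 10. Of 35116 RefSeq stretches of the same length, 13.3% held the CHR letters, 32% CCAAT, 42.6% the GC box, 10.7% the TATA letters and 2.79% an E2F motif. These matches describe the letters only, and no factor's binding was measured here.

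CDKN1A, which encodes p21, was the most abundant member in every library. It lies at chr6:36676460-36687337 (GRCh38, plus strand). Its level was 289, 337 and 319 CPM in the 3 Prol libraries and 1073, 1042 and 1051 CPM in the 3 Sen(IR) libraries. Every Sen(IR) library was far above every Prol library, and the senescent libraries were closer to each other (coefficient of variation 1.54%) than the proliferating ones (7.82%). The rise was 1.74 ± 0.054 (log2 fold change ± SE), or 3.35-fold, with an edgeR adjusted p of 1.03e-17. Of its exon bases, 4.87% also belong to the antisense gene DINOL, and the strand setting of the counting is not given in the sources used here.

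CDKN1B (chr12:12685498-12722369, plus strand), which encodes p27, moved the other way. Prol libraries held 44.1, 48.3 and 47.1 CPM, and Sen(IR) libraries 22.8, 27.3 and 24.7 CPM. The lowest Prol library stood well above the highest senescent one. The log2 fold change was -0.90 ± 0.083 (edgeR adjusted p = 2.03e-09), a 1.86-fold drop. CDKN1C (chr11:2883213-2885775, minus strand), which encodes p57 and is expressed from the maternal copy, was low throughout, at 3.33, 3.74 and 3.90 CPM in Prol and 2.62, 2.56 and 3.38 CPM in Sen(IR). The highest senescent library exceeded the lowest Prol library, and the difference of -0.36 ± 0.20 was not called (edgeR adjusted p = 0.114, 95% interval -0.78 to 0.05).

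The INK4 genes CDKN2A and CDKN2B lie side by side on chromosome 9, at chr9:21967752-21995301 and chr9:22002903-22009305 (both minus strand), with 7601 bases between them, and they moved in opposite directions. CDKN2A stood at 7.29, 6.91 and 8.36 CPM in Prol and at 3.51, 3.51 and 5.20 CPM in Sen(IR). Although the last Sen(IR) library was the highest of the senescent ones, it stayed under every Prol library. The fall was -0.89 ± 0.17 on the log2 scale (edgeR adjusted p = 6.67e-05), and without that library it was -1.10. These counts pool p16 with p14ARF, so a change in the p16 transcript alone cannot be read from them. The study itself checked senescence by p16 and p21, among other markers, and showed p16 protein in irradiated cells by western blot. It also measured p21, p16 and p15 mRNA by RT-qPCR, as fold change relative to proliferating cells. Those values stand in its figures and were not compared with the counts here. Exon bases shared with the antisense RNA CDKN2B-AS1 make up 15.3% of CDKN2A, and CDKN2B-AS1 itself averaged 0.846 CPM in Prol and 0.617 CPM in Sen(IR).

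CDKN2B, which encodes p15, held 13.7, 15.9 and 14.98 CPM in Prol and 33.9, 38.5 and 41.6 CPM in Sen(IR). All senescent libraries were above all proliferating ones, by 1.35 ± 0.098 on the log2 scale or 2.55-fold (edgeR adjusted p = 3.31e-11). Within each library, the ratio of CDKN2B to CDKN2A per kilobase of exon was 1.82, 2.24 and 1.74 in Prol and 9.37, 10.7 and 7.78 in Sen(IR). With the length of the canonical transcript in place of all exons, the order in Prol was the reverse. CDKN2B then averaged 3.86 and CDKN2A 7.69 CPM per kilobase in Prol, against 9.86 and 4.17 in Sen(IR). The choice of length shifts the ratio of every library alike and leaves differences between groups unchanged. The difference in the mean log2 ratio was 2.26, with SDs of 0.19 and 0.23. An exact two-sided permutation test of 3 against 3 libraries gave p = 0.1, the smallest value this design allows.

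CDKN2C (chr1:50960745-50974634, plus strand), which encodes p18, showed the largest drop among the INK4 genes. Prol libraries held 40.6, 37.4 and 43.5 CPM, whereas Sen(IR) libraries held 2.18, 2.75 and 2.501 CPM, from 49 to 58 counts each. The groups were far apart, with a log2 fold change of -4.03 ± 0.13 (edgeR adjusted p = 1.32e-17) and a 16.4-fold drop. Exon bases shared with ENSG00000290102 on the other strand make up 20.4% of CDKN2C. CDKN2D (chr19:10566460-10569059, minus strand), which encodes p19, fell less, from 6.35, 5.41 and 6.54 CPM to 3.83, 3.65 and 3.38 CPM, and its groups did not overlap. That difference was -0.75 ± 0.15 on the log2 scale (edgeR adjusted p = 1.51e-04).

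CDKN3 (chr14:54396849-54420218, plus strand) matched CDKN2C in size of change. It stood at 37.3, 36.4 and 42.9 CPM in Prol and at 2.36, 2.46 and 2.305 CPM in Sen(IR), where the libraries were almost equal. The log2 fold change was -4.03 ± 0.13 (edgeR adjusted p = 1.81e-17), a 16.3-fold drop. Counted from the strongest fall, CDKN2C and CDKN3 ranked 64 and 65 of the 16251 genes tested. The remaining level was 6.12% of the Prol mean for CDKN2C and 6.11% for CDKN3. Of the 6 proliferation genes checked, 4 kept shares of this order, 4.67% for the proliferation marker MKI67, 5.20% for the DNA topoisomerase TOP2A, 5.38% for the mitotic kinase CDK1 and 6.16% for cyclin A2 (CCNA2). The replication genes MCM2, a helicase subunit, and PCNA, the sliding clamp, kept more, 16.2% and 32.0%.

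**Figure D1:**
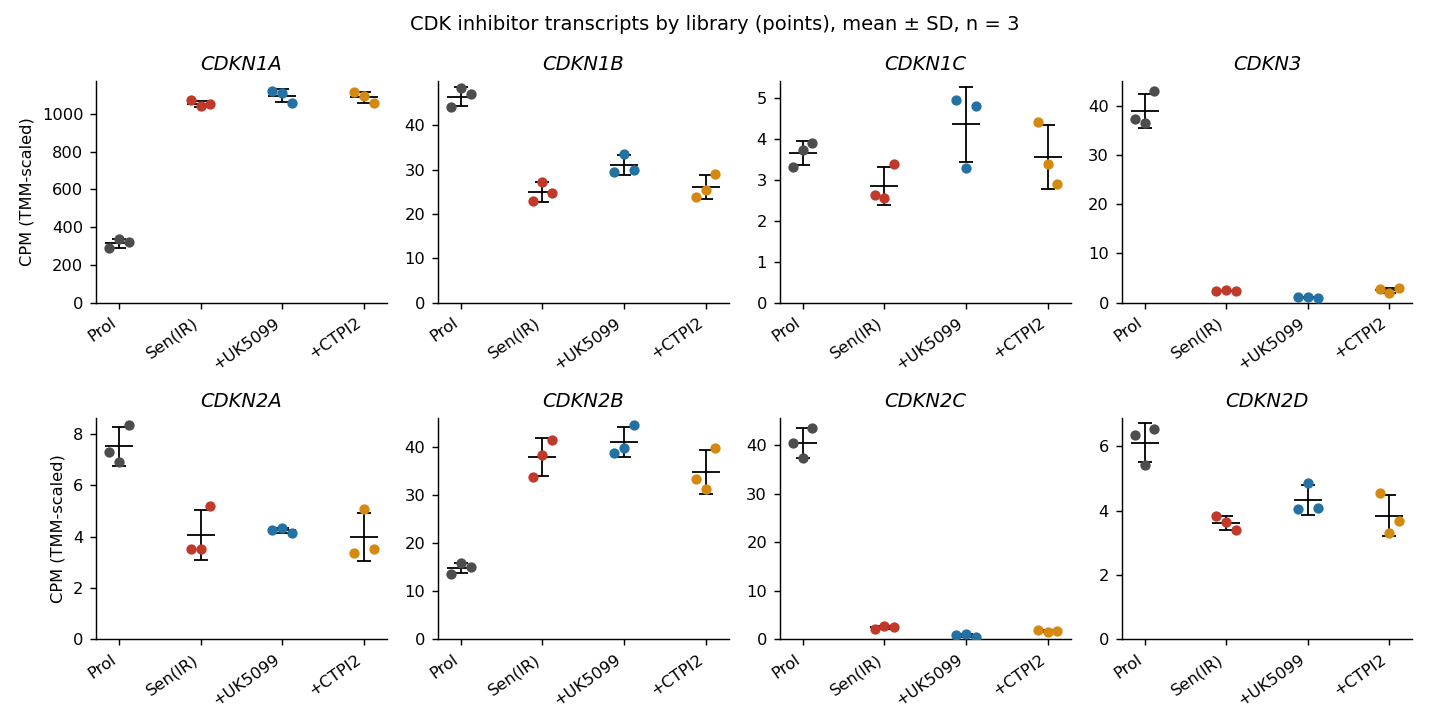
CPM of each CDK inhibitor (y axis, from 0, scaled for each gene) in the 12 libraries (points), with the mean ± SD of the 3 libraries of each group (x axis). CDKN1A and CDKN2B are higher in all 3 irradiated groups than in Prol, CDKN2C and CDKN3 fall from about 40 CPM to under 3 CPM, and the groups of CDKN1C overlap.

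UK5099 changed 3 of the 8 transcripts in senescent cells, CDKN2C, CDKN3 and CDKN1C, where 20.8% of all genes were called in this comparison. CDKN2C and CDKN3 fell further (12.1% of all genes were called lower), and CDKN1C rose (8.76% were called higher). The members whose products are used most often to mark senescence, CDKN1A, CDKN2A and CDKN2B, were not called. The median log2 fold change of the members was 0.09, against 0.0099 over all genes. Groups did not overlap for 4 members, as for 56.6% of all genes.

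With UK5099, CDKN2C dropped to 0.828, 1.08 and 0.543 CPM, from 14 to 29 counts per library. Even the highest of these libraries was below the lowest Sen(IR) library, and each held more than the 3 counts taken as the detection floor. The log2 fold change was -1.59 ± 0.21 (edgeR adjusted p = 2.10e-06), a 3.01-fold drop with a 95% interval of -2.03 to -1.15. CDKN3 dropped to 1.08, 1.22 and 0.930 CPM, from 24 to 33 counts per library, again under every Sen(IR) library. Its log2 fold change was -1.14 ± 0.20 (edgeR adjusted p = 8.47e-05), or 2.197-fold. Against Prol, 2.01% of the CDKN2C level and 2.77% of the CDKN3 level remained.

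The 6 proliferation genes were all lower with UK5099 than in Sen(IR), and 5 of them were called, where 12.1% of all genes were called lower. With UK5099, 0.404% of the Prol level of MKI67 remained, 0.842% of CDK1, 0.962% of TOP2A, 3.64% of CCNA2, 9.50% of MCM2 and 23.4% of PCNA. Against Sen(IR), MKI67 differed by -3.54 on the log2 scale, CDK1 by -2.68, TOP2A by -2.44, MCM2 by -0.77, CCNA2 by -0.76 and PCNA, which was not called, by -0.45, so that CDKN2C and CDKN3 lay between MCM2 and TOP2A in size. These differences between genes were not tested.

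**Figure D2:**
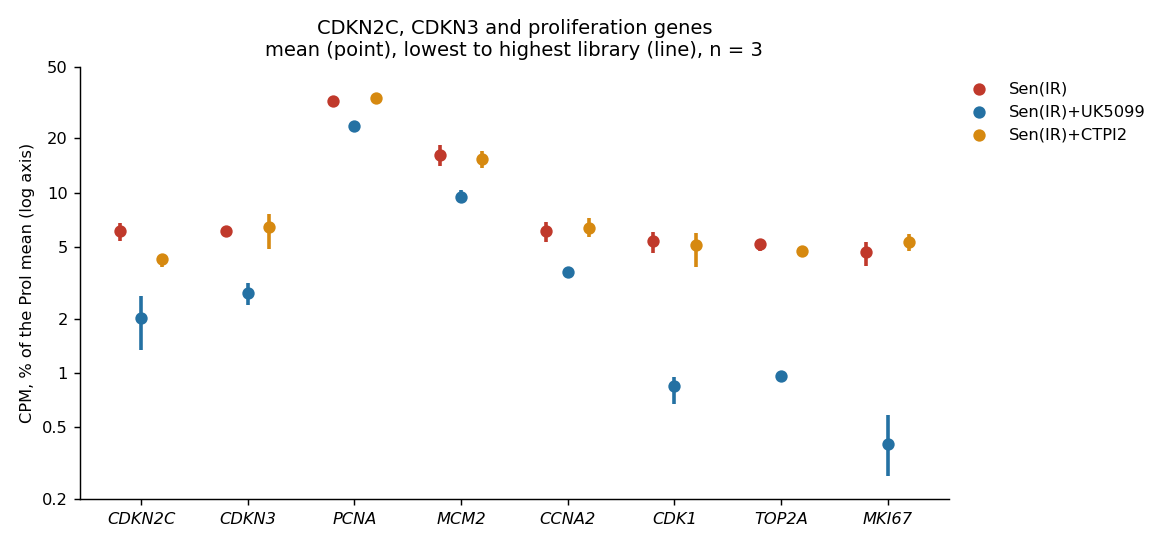
Level of CDKN2C, CDKN3 and 6 proliferation genes (x axis) in the irradiated groups as a percentage of the Prol mean (y axis, log axis), with the mean of 3 libraries as a point and the lowest to highest library as a line. In Sen(IR) and Sen(IR)+CTPI2, CDKN2C, CDKN3, CCNA2, CDK1, TOP2A and MKI67 lie between 3.86% and 7.57% and MCM2 and PCNA above them, and with UK5099 the genes spread from 0.268% for the lowest MKI67 library to 24.4% for the highest PCNA library.

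CDKN1C, the remaining called member, held 4.97, 3.30 and 4.81 CPM with UK5099 against 2.62, 2.56 and 3.38 CPM in Sen(IR). The middle UK5099 library lay below the highest Sen(IR) library, so the groups overlapped. The log2 fold change was 0.61 ± 0.20 (edgeR adjusted p = 0.0142). The call was lost, with edgeR adjusted p-values of 0.0583, 0.0612, 0.0694 and 0.0620, when replicate 1 or 2 of Sen(IR) or replicate 1 or 3 of Sen(IR)+UK5099 was left out.

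CDKN1B was higher with UK5099, at 29.4, 33.6 and 29.996 CPM. Every library was above every Sen(IR) library and below every Prol library. The log2 difference of 0.32 ± 0.084 had an edgeR adjusted p of 0.00398 but was under the fold-change limit, and with it 4 members had an adjusted p under 0.05 at any fold, where 45.4% of all genes did. CDKN2D stood at 4.06, 4.86 and 4.07 CPM, above each Sen(IR) library, yet the difference of 0.26 ± 0.16 did not pass the test (edgeR adjusted p = 0.193).

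The levels of CDKN1A with UK5099 were 1124, 1112 and 1058 CPM, within or just above the Sen(IR) range. The log2 difference was 0.06, with a 95% interval of -0.05 to 0.17. CDKN2A held 4.26, 4.34 and 4.15 CPM, between the lowest and highest Sen(IR) libraries, with a difference of 0.07 (95% interval -0.30 to 0.44). CDKN2B held 38.7, 39.9 and 44.6 CPM and overlapped Sen(IR), with a difference of 0.11 (95% interval -0.07 to 0.30). For these 3 genes the intervals leave out any difference beyond the fold-change limit of 0.5, in either direction.

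With CTPI2 against Sen(IR), edgeR called 0 of the 8 members, where 0.166% of all genes, or 27, were called. At an unadjusted p under 0.05, 1 member passed, CDKN2C, where 7.27% of all genes did, and DESeq2's Wald test also passed 1 member at that limit. CDKN2C held 1.84, 1.57 and 1.78 CPM with CTPI2. All of these libraries were below all Sen(IR) libraries, the only member for which the groups did not overlap (15.1% of all genes did not). The difference was -0.52 ± 0.19 with a 95% interval of -0.90 to -0.13, an unadjusted edgeR p of 0.0109 and an adjusted p of 0.440, from 38 to 42 counts per library.

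CDKN1A with CTPI2 was 1115, 1094 and 1056 CPM, a log2 difference of 0.04 (95% interval -0.06 to 0.15). CDKN2A was 3.38, 5.08 and 3.51 CPM, where the middle library stood apart from the other two, a difference of -0.02 (95% interval -0.40 to 0.35). CDKN2B was 33.5, 31.2 and 39.9 CPM, a difference of -0.12 (95% interval -0.31 to 0.07). For these members, as for CDKN1B, CDKN2D and CDKN3, the interval stays within 0.5 on either side of 0 and the libraries overlap those of Sen(IR).

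CDKN3 held 2.67, 1.90 and 2.94 CPM with CTPI2, a log2 difference of 0.07 with a 95% interval of -0.29 to 0.44. CDKN1B held 23.8, 25.3 and 29.0 CPM, a difference of 0.06 (95% interval -0.12 to 0.24). CDKN2D held 4.56, 3.30 and 3.68 CPM, a difference of 0.08 (95% interval -0.25 to 0.42). CDKN1C, at 4.43, 3.38 and 2.90 CPM, left the widest interval, -0.09 to 0.74 around 0.32, so a rise past the fold-change limit is neither shown nor left out.

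UK5099 and CTPI2 were then compared directly. CDKN2C and CDKN3 were lower with UK5099, the 2 members called, where 19.9% of all genes were called and 11.7% called lower. The log2 fold change was -1.07 ± 0.22 for CDKN2C (edgeR adjusted p = 4.79e-04) and -1.21 ± 0.20 for CDKN3 (edgeR adjusted p = 3.32e-05), 2.101-fold and 2.31-fold drops, and no UK5099 library reached a CTPI2 library for either gene. CDKN1B and CDKN2B were higher with UK5099 by 0.25 ± 0.083 and 0.24 ± 0.090, with edgeR adjusted p-values of 0.0169 and 0.0359 but under the fold-change limit. CDKN1C, with a call against Sen(IR) for UK5099 and none for CTPI2, differed between the inhibitors by 0.28 ± 0.19, which did not pass the test (edgeR adjusted p = 0.230). Since the CTPI2 dose is not known here, this is a comparison of the samples as sequenced, not of matched doses.

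**Figure D3:**
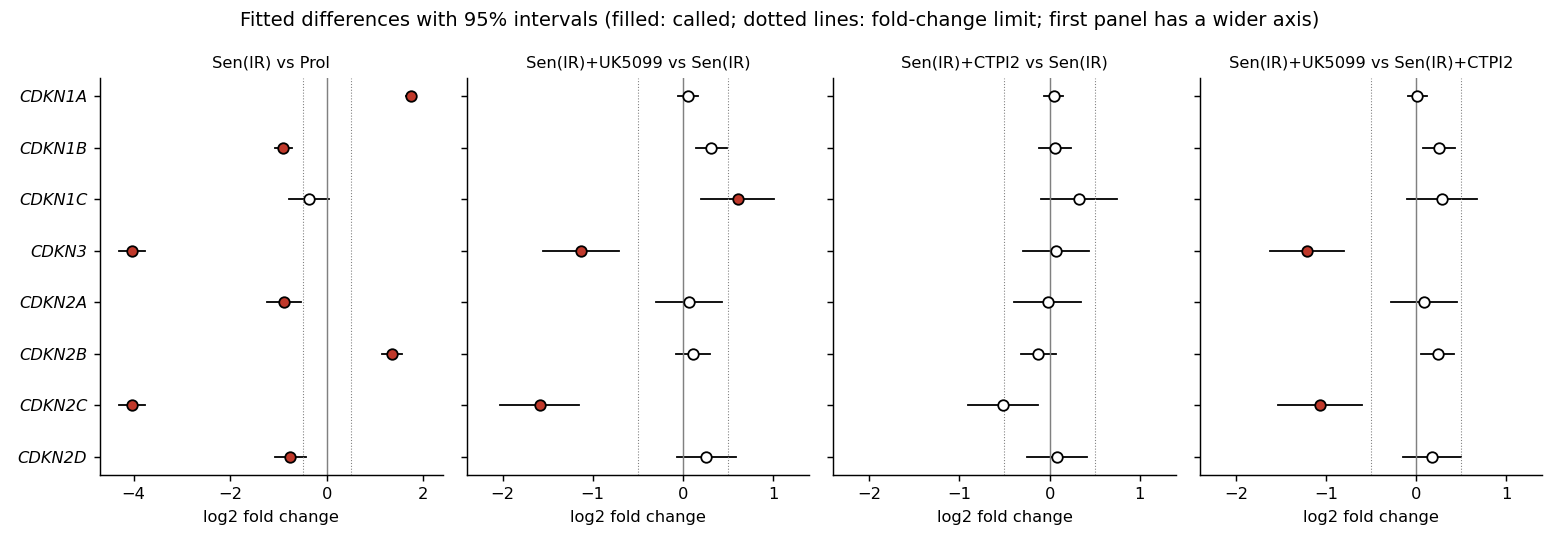
Log2 fold changes (points, x axis) of the 8 CDK inhibitors (y axis) with 95% intervals in 4 comparisons, where filled points were called and dotted lines mark the fold-change limit of 0.5, and the first panel has a wider axis. CDKN2C and CDKN3 are called lower in the Prol, UK5099 and direct inhibitor comparisons, while no point is filled for CTPI2 against Sen(IR).

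Both inhibitor groups were also compared with proliferating cells. With UK5099, 6 members were called (53.1% of all genes), with log2 fold changes of 1.80 for CDKN1A, 1.47 for CDKN2B, -0.58 for CDKN1B, -0.83 for CDKN2A, -5.62 for CDKN2C and -5.17 for CDKN3. CDKN2D, at -0.495 with an edgeR adjusted p of 0.00420, was just under the fold-change limit, and it was called at -0.57 without Prol replicate 2 and at -0.59 without Sen(IR)+UK5099 replicate 2. Against Prol with CTPI2, 7 members were called (46.8% of all genes), among them CDKN1A at 1.79, CDKN2B at 1.23, CDKN2C at -4.55 and CDKN3 at -3.96. CDKN1C was not called in either comparison (0.25 and -0.04). These comparisons share the Prol libraries with the first.

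Levels of different genes can be compared only per length of transcript, so CPM were divided by the kilobases of exon of each gene. On this scale CDKN1A led in all 4 groups, at 105 ± 8.2 CPM per kilobase in Prol (SD, n = 3) and 352 ± 5.4 in Sen(IR), followed by CDKN3 and CDKN2C in Prol (21.3 and 13.4) and by CDKN2B and CDKN1B in Sen(IR) (9.50 and 2.70). In Prol, only the neighbours CDKN2D and CDKN2B overlapped in this order. In Sen(IR), CDKN1B overlapped CDKN2D, and the chain CDKN3, CDKN1C, CDKN2A and CDKN2C at the bottom overlapped from each neighbour to the next. With UK5099, CDKN1B and CDKN2D overlapped and CDKN2C was the lowest. With CTPI2, CDKN1B overlapped CDKN2D, CDKN3 overlapped CDKN1C and CDKN2A, and CDKN2C was again the lowest. CDKN1A made up 67.3% of the summed level of the 8 members in Prol, 94.9% in Sen(IR), 94.8% with UK5099 and 95.2% with CTPI2. With the canonical transcript length in place of all exons, these shares were 54.5%, 93.6%, 93.6% and 93.9%, and CDKN1B ranked above CDKN2B in the irradiated groups. CDKN2A then ranked 5 in Prol and 4 in each irradiated group. By exon length it ranked 7 in Prol, Sen(IR) and Sen(IR)+CTPI2 and 6 with UK5099. CDKN1C, not CDKN2C, was the lowest in Sen(IR) by canonical length. The order and overlaps given above therefore apply to exon length only.

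The INK4 transcripts changed in makeup, and their sum was lower in the irradiated groups. CDKN2C supplied 58.0% ± 0.86 (SD, n = 3) of the summed INK4 level per kilobase in Prol, but 5.96% ± 0.53 in Sen(IR), 1.87% ± 0.63 with UK5099 and 4.45% ± 0.26 with CTPI2. CDKN2B was the largest part in irradiated cells, with 16.1% in Prol and 68.9%, 70.7% and 67.6% in the irradiated groups. CDKN2A, the p16 gene, supplied 8.36% in Prol and 7.56%, 7.55% and 8.09% in the irradiated groups. By canonical length, CDKN2C went from 72.0% in Prol to 13.1% in Sen(IR), CDKN2B from 6.86% to 51.7% and CDKN2A from 13.6% to 21.7%. The INK4 sum was 21.8 to 24.7 CPM per kilobase in Prol and 12.6 to 14.8 in Sen(IR), without overlap. UK5099 libraries had 13.8 to 15.1 and CTPI2 libraries 11.8 to 13.9 CPM per kilobase.

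**Figure D4:**
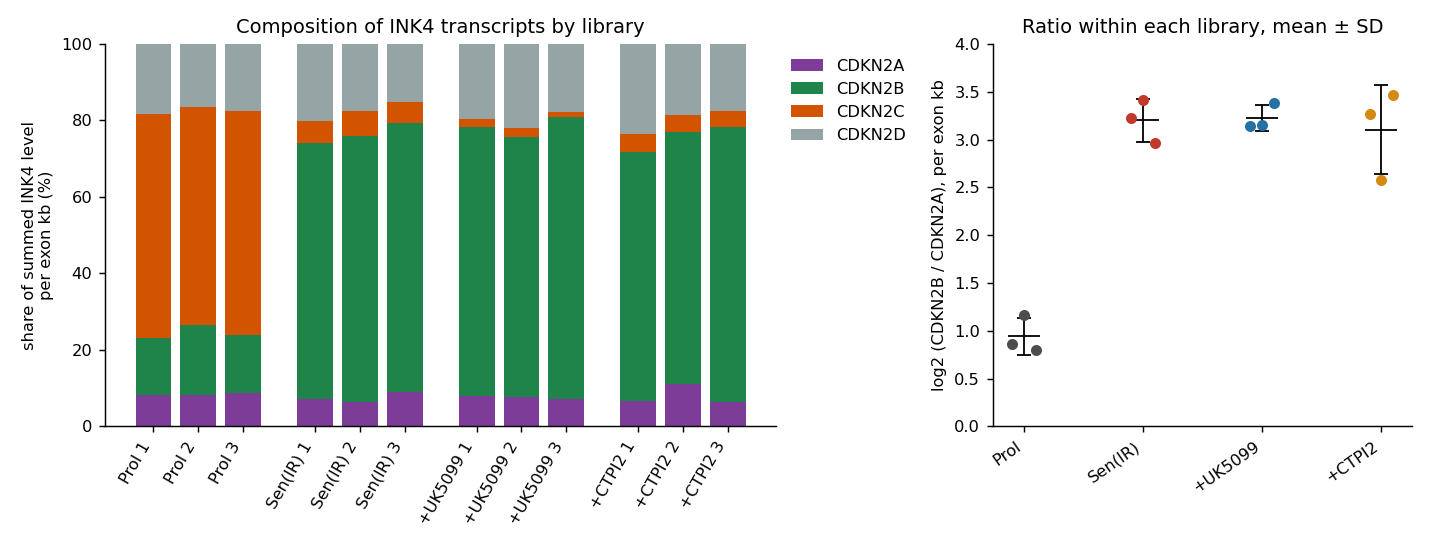
Left, the share of each INK4 gene in the summed INK4 level per exon kilobase (y axis, %) in each library (x axis). Right, the log2 ratio of CDKN2B to CDKN2A per exon kilobase (y axis) by library (points) with the mean ± SD of each group. CDKN2C is 57.0% to 58.5% of the sum in Prol and at most 6.57% in any irradiated library, and the ratio lies at 0.80 to 1.16 in Prol and 2.58 to 3.47 in the irradiated groups.

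In the inhibitor groups the ratio of CDKN2B to CDKN2A per kilobase of exon stood at 8.83, 8.92 and 10.5 with UK5099 and at 9.64, 5.98 and 11.1 with CTPI2. By canonical length, CDKN2B and CDKN2A averaged 10.7 and 4.35 CPM per kilobase with UK5099 and 9.05 and 4.08 with CTPI2. The mean log2 ratio differed from Sen(IR) by 0.028 for UK5099 (exact permutation p = 1) and by -0.095 for CTPI2 (exact permutation p = 0.9), and the sign of both turned when single libraries were left out. The inhibitors differed from each other by 0.12 (exact permutation p = 0.9).

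The partners that these inhibitors bind changed as well. Of 12 CDKs and cyclins, 3 rose and 7 fell in Sen(IR) against Prol (median log2 fold change -1.68, against 0.014 over all genes), where 24.8% of all genes were called higher and 22.4% lower. CDK2, a main target of the CIP/KIP proteins, fell from 151 to 23.5 CPM (-2.68), while D-type cyclins, which carry CDK4 and CDK6, rose, CCND2 by 3.98, CCND1 by 1.67 and CCND3 by 0.80. CDK4 fell by 1.03 on the log2 scale, and CDK6, at 165 and 173 CPM, was not called (0.07). Per exon kilobase, CDKN1A was 2.76 ± 0.57 times CDK2 in Prol, 58.3 ± 1.8 times in Sen(IR), 96.6 ± 4.1 times with UK5099 and 63.1 ± 0.94 times with CTPI2 (SD, n = 3).

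With UK5099 against Sen(IR), 0 of the 12 partners rose and 8 fell, where 12.1% of all genes were called lower (median -0.71, against 0.0099 over all genes), among them CDK2 (-0.67) and CDK6 (-0.61). The sum of the INK4 genes relative to CDK4 and CDK6 was 0.628 to 0.660 with UK5099 against 0.420 to 0.486 in Sen(IR), without overlap. By canonical length this ratio was 0.581 to 0.601 against 0.415 to 0.499. Between Prol and Sen(IR) the outcome hinged on the length used, as the ranges overlapped by exon length (0.474 to 0.508 in Prol) and did not by canonical length (0.778 to 0.834 in Prol).

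Of 11 genes listed for p21 and p27 turnover, 8 fell in Sen(IR) and 0 rose (median -0.59), where 22.4% of all genes were called lower. The list holds CKS2 beside the ubiquitin ligase genes, and CKS2 was among the 8 (-2.09). CKS1B and DTL, which help to hand p27 and p21 to ubiquitin ligases, fell (-2.90 and -3.05 on the log2 scale), as did SKP2, the receptor for p27 in its ligase (-1.34). With UK5099, 2 of the 11 fell, DTL (-2.17) and CKS2 (-0.54), with a list median of 0.08, a share near the 20.8% called over all genes. Genes of the DNA damage response, to which CDKN1A belongs, rose in 12 of 16 cases and fell in 1, MDM4, in Sen(IR) against Prol (median 1.13), where 24.8% of all genes were called higher. TP53INP1 rose by 2.31 and BTG2, an antiproliferative gene, by 1.93, and MDM2, a ubiquitin ligase, by 1.22. UK5099 raised 1 of these 16, TP53INP1 (0.58), and lowered 3, PLK2 (-1.01), PLK3 (-0.84) and TNFRSF10B (-0.64), with a median of 0.02, again near the 20.8% of all genes, while CDKN1A differed by 0.06.

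Around the INK4 locus, 2 of 12 listed genes, mostly repressors and neighbours, rose and 3 fell in Sen(IR) (median -0.32). That share of called genes was near the 47.2% over all genes. The larger rise was that of DMRTA1 (4.01), from 0.027 CPM in Prol, under the detection floor, to 0.516 CPM. EZH2, the methyltransferase of the Polycomb complex that silences CDKN2A in growing cells, fell (-3.14 on the log2 scale), as did its partner EED (-1.07), while CDKN2A was lower and CDKN2B higher. BMI1, another Polycomb repressor of the locus, differed by -0.07, and MTAP, next to CDKN2A on the chromosome, by -0.48, under the limit. The Polycomb reader CBX7 rose by 0.57 in Sen(IR) and by a further 1.09 with UK5099, from 4.56 to 9.71 CPM, and EZH2 fell by a further 0.63, the 2 of the 12 called with UK5099, where 20.8% of all genes were (median 0.0015). EED was higher with UK5099 by 0.46 (edgeR adjusted p = 5.39e-05), under the fold-change limit.

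Among 14 listed regulators of CIP/KIP and CDKN2B transcription, 5 rose and 2 fell in Sen(IR) (median 0.20), again near the 47.2% called over all genes. MXD4, a partner of MAX opposed to MYC, rose by 1.39, and TGFBR2, the receptor of the TGF-β pathway that induces CDKN2B, by 1.20. With UK5099, FOXO3, a transcription factor that induces CDKN1B, rose by 0.85, from 88.3 to 159 CPM, and TGFBR2 fell by 0.67, and the other 12 were not called (median 0.14), so that the share called was not above the 20.8% over all genes. Downstream of the INK4 genes, 7 of 13 pocket proteins and E2F factors fell in Sen(IR) and 0 rose (median -0.67), where 22.4% of all genes were called lower, among them E2F8 (-5.47) and E2F2 (-4.50). UK5099 lowered 3 and raised 1, TFDP2 (0.59), with a median of -0.13, where 20.8% of all genes were called.

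CDKN1C lies in an imprinted cluster, of which 5 of 7 listed neighbours could be tested. In Sen(IR), SLC22A18 rose by 1.64 and KCNQ1OT1, an antisense RNA of the cluster, by 1.16. IGF2 (-2.46), PHLDA2 (-0.90) and NAP1L4 were the 3 that fell (list median -0.52), where 47.2% of all genes were called. With UK5099, 3 of the 5 fell (median -0.54), IGF2 (-1.25), PHLDA2 (-0.58) and KCNQ1OT1 (-0.54), and 0 rose, where 12.1% of all genes were called lower. KCNQ1 (0 to 3 counts per library) and H19 (0 to 2) were too low to test. All 6 proliferation genes checked fell in Sen(IR) (median -4.12), where 22.4% of all genes were called lower. With UK5099, 5 of these 6 fell again (median -1.60), where 12.1% of all genes were called lower.

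With CTPI2 against Sen(IR), edgeR called 0 of the 87 distinct genes tested in these 8 lists, and DESeq2 also called 0. By each tool, 13 of the 87 had an unadjusted p under 0.05, where 7.27% of all genes did by edgeR. In the same lists edgeR called 59 genes in Sen(IR) against Prol, where 47.2% of all genes were called, and 28 with UK5099 against Sen(IR), where 20.8% were.

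For each member, the 3 genes with the most similar pattern were taken from 12141 genes with a mean log2 CPM above 1, by the root-mean-square difference of centred log2 CPM over the 12 libraries. CDKN1A was followed most closely by FTH1 (0.058), SIAE and PAM, CDKN2B by ARMCX3 (0.094), TRAM1 and ITM2B, and CDKN1B by LRRC40 (0.091), QSER1 and MIOS. CDKN3 was nearest to FAM83D (0.16), DDIAS and SPC24, and CDKN2C to FST (0.20), NUSAP1 and LMNB1. For CDKN2D the nearest were DOLPP1 (0.098), UHRF2 and RBM22, for CDKN2A ZNF853 (0.14) and NRF1 among others, and for CDKN1C EEF1A1P6 (0.17), PRPF40B and ZNF286B. CDKN2C and CDKN3, which fell alike in Sen(IR), were not among each other's nearest genes.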

How the data were processed

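RNA was sequenced as paired ends of 150 bases from 12 MRC5 libraries. Per the study's methods and the submitters' processing notes, the authors used Trimmomatic 0.36 for trimming, STAR 2.5.2b for alignment to GRCh38 and featureCounts (Subread 1.5.2) for counting unique exon reads by gene. The strand setting and the annotation release are not given in the sources used here. The deposited table holds these raw counts per gene, without normalization.

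Counts were fitted with edgeR 4.0.16 in R 4.3.3 (filterByExpr, TMM, glmQLFit and glmQLFTest) in 1 model of the 4 groups, and p-values were adjusted over 16251 genes, which hold 99.9% of the counts. The SE is the absolute log2 fold change divided by the square root of F. Replicates varied by 6.12% (the root of the common dispersion). Positions and exon lengths came from GENCODE 44. The ratio of CDKN2B to CDKN2A was tested by exact permutation with scipy 1.17.1.

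The study describes its RNA-seq replicates as independent experiments or conditions, while the labels number them only. The p-values of edgeR set differences between groups against the spread between these libraries, estimated for the 4 groups together. No pair of replicates agreed within sampling noise (chi-square per gene 2.28 to 13.6). The fits were tested on simulated data before use.

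Named genes were the 8 members, the 3 genes nearest in pattern to each, and from 8 gene lists the largest changes in each direction plus a fixed set of regulators. MDM4, PLK3, TNFRSF10B, CCND3, DTL, CKS2, NAP1L4, KCNQ1OT1, PHLDA2, MCM2 and PCNA were named as parts of small counts or beside a member after their values were seen. A few genes that this rule names are not reported here. The members and lists were chosen with earlier results of these data known.

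Alternatives were RLE and upper-quartile scaling, no filter, the Wald test of DESeq2 1.42.0, only the compared groups, a replicate block, unadjusted p-values, a fold-change limit of 1, and leaving out each library.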

Additional observations from a re-analysis of the deposited data

How the results depend on the processing

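The number of members called equalled that reported in 77 of 90 recomputed counts and differed in 13, and the difference in the CDKN2B to CDKN2A ratio kept its sign in 23 of 28 and turned in 5. With a fold-change limit of 1 (log2), 4 members instead of 7 were called in Sen(IR) and in Sen(IR)+CTPI2 against Prol, since CDKN1B, CDKN2A and CDKN2D lay between the limits, 4 instead of 6 for UK5099 against Prol, and 2 instead of 3 for UK5099 against Sen(IR). With unadjusted p-values, edgeR and DESeq2 each called 1 member, CDKN2C, for CTPI2 against Sen(IR), at -0.52 and -0.53. Leaving out each library, the called members were 7 in Sen(IR) against Prol, 2 to 3 for UK5099 and 0 for CTPI2 against Sen(IR), 2 between the inhibitors, and 6 to 7 for UK5099 and 7 for CTPI2 against Prol.

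Without single libraries, the difference in the log2 ratio of CDKN2B to CDKN2A ran from 2.15 to 2.38 for Sen(IR) against Prol, from -0.0922 to 0.135 for UK5099 and from -0.276 to 0.167 for CTPI2 against Sen(IR), and from -0.139 to 0.305 between the inhibitors, so the sign turned in all but the first. It turned without Sen(IR)+UK5099 replicate 3 (-0.0507) or Sen(IR) replicate 3 (-0.0922), without Sen(IR)+CTPI2 replicate 2 (0.167) or Sen(IR) replicate 2 (0.0112), and between the inhibitors without Sen(IR)+CTPI2 replicate 2 (-0.139). The cause was not tested. Single members that were not called also turned sign without a library. For UK5099 against Sen(IR), CDKN2A ran from -0.0318 to 0.275. For CTPI2 against Sen(IR), CDKN1B ran from -0.0218 to 0.132, CDKN2A from -0.238 to 0.187, CDKN2D from -0.0549 to 0.184 and CDKN3 from -0.0600 to 0.241. Between the inhibitors, CDKN1A ran from -0.00736 to 0.0382 and CDKN2A from -0.0171 to 0.304. For CTPI2 against Prol, CDKN1C ran from -0.218 to 0.0830, and it was 0.0757 under upper-quartile scaling.

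Upper-quartile scaling raised the median of all genes by 0.12 in Sen(IR), 0.14 in Sen(IR)+UK5099 and 0.11 in Sen(IR)+CTPI2 against Prol, and CDKN1B with UK5099 against Prol was then -0.44, under the limit. Over all genes, the limit of 1 called 4030 in Sen(IR), 4967 in Sen(IR)+UK5099 and 4028 in Sen(IR)+CTPI2 against Prol, 1511 for UK5099 and 11 for CTPI2 against Sen(IR), and 1417 between the inhibitors, where the limit of 0.5 called 7677, 8632, 7599, 3386, 27 and 3236. For CTPI2 against Sen(IR), 46 genes were called without the filter, 296 at an unadjusted p with edgeR and 230 with DESeq2, 16 without Sen(IR) replicate 3 and 15 without Sen(IR)+CTPI2 replicate 2.

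Same-numbered replicates did not deviate together (r = -0.16 to 0.10 over 18 pairs). Whether they share a culture or harvest is not given in the sources used here, and weak correlations cannot settle it. A fit with the replicate block called 7 members in Sen(IR) against Prol, 3 for UK5099 and 0 for CTPI2 against Sen(IR), 2 between the inhibitors, and 6 for UK5099 and 7 for CTPI2 against Prol, and it changed no call of a member. Depth limits CDKN2C and CDKN3 with UK5099, which rest on 14 to 29 and 24 to 33 counts per library. It also limits CDKN1C, CDKN2A and CDKN2D, at 54 to 124, 74 to 123 and 69 to 131 counts in the irradiated groups.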
